A study of Mus musculus with 16 samples.

Results

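The 9 genes described here are *Fkbp5*, *Tsc22d3*, *Sgk1*, *Zbtb16*, *Pdk4*, *Nr3c1*, *Nr3c2*, *Mt1* and *Mt2*, chosen by symbol as 5 genes that glucocorticoids induce, the 2 corticosteroid receptors and 2 metallothioneins, out of 52636 genes listed in the count tables. RNA was sequenced from the L3-6 dorsal root ganglia (DRGs) of male C57Bl6/J mice aged 3 to 4 months, with 1 mouse per library and 4 mice in each of 4 groups. Sham-Saline mice had sham surgery and saline injections, SNI-Saline mice had spared nerve injury (SNI, a lesion of sciatic nerve branches that leaves 1 branch intact) and saline, and Sham-DMI and SNI-DMI mice had the same surgeries and desipramine (DMI), a tricyclic antidepressant. Injections were given 2 times a day over 3 weeks, with DMI at 15 mg/kg, and began 4 weeks or 4 months after surgery, since both times are stated. All 16 mice were injected for the whole treatment period, so no group shows these genes without repeated handling.

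Between 41194238 and 73920332 reads per library were counted on genes, and each of the 9 genes had from 213 to 11794 counts in every library. Levels are given as CPM (counts per 1000000 reads on genes, scaled by the TMM method). Spinal cord stands as the tissue in the labels, beside dorsal root ganglia as the cell type. The summed level of 10 sensory neuron markers was 10246 to 12786 CPM, while *Mog*, *Slc6a5* and *Chat*, which mark oligodendrocytes, glycinergic interneurons and motor neurons of the spinal cord, each stayed under 1 CPM. The whole list of 10 spinal cord markers summed to 41.1 to 75.2 CPM. Of its 7 tested genes *Slc1a2*, *Mobp* and *Aqp4* were called lower with DMI averaged over both surgeries (-0.51, -1.04 and -0.26), where 15.8% of all genes were. They stand beside the DMI results of the members, and their part in those was not tested. In bulk tissue, fewer cells of a type and less RNA per cell cannot be told apart. The labels number the Sham-DMI libraries 17 to 20, the SNI-DMI libraries 21 to 24, the SNI-Saline libraries 33 to 36 and the Sham-Saline libraries 37 to 40. In all 4 comparisons, any effect tied to these numbers and the groups cannot be told apart either.

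Glucocorticoids released by the adrenal gland bind the glucocorticoid receptor (*Nr3c1*) and, with higher affinity, the mineralocorticoid receptor (*Nr3c2*), which leave their chaperones, enter the nucleus and bind palindromic response elements in DNA. Among the genes that they induce are *Fkbp5*, whose product is a co-chaperone that lowers the receptor's affinity for its ligand, and *Tsc22d3*, which encodes the leucine zipper protein GILZ. Metallothioneins are small cysteine-rich proteins that bind zinc and copper. *Mt1* and *Mt2* are induced by zinc through the metal-responsive factor MTF1, by oxidative stress and also by glucocorticoids.

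The promoters of both metallothionein genes and 1 start region of *Sgk1* are printed because they hold the letters of the 2 response elements. *Mt2* (chr8:94172664-94173568) and *Mt1* (chr8:94179082-94180327) lie 5513 bases apart on the plus strand of GRCm38. Capitals in these windows, which run from 250 bases before to 27 bases after the RefSeq start site, mark matches to TGCNCNC, the core of the metal response element, on either strand (*Mt1* at chr8:94178839-94179115 and *Mt2* at chr8:94172368-94172644, plus strand, RefSeq on GRCm38.p6). The RefSeq start sites differ from the GENCODE gene starts given above, and the whole *Mt2* stretch lies before that gene start. In the *Sgk1* stretch (chr10:21993676-21993740, plus strand) the capitals mark a full palindrome of the glucocorticoid response element, which begins 189 bases before an alternative start site.
Mt1: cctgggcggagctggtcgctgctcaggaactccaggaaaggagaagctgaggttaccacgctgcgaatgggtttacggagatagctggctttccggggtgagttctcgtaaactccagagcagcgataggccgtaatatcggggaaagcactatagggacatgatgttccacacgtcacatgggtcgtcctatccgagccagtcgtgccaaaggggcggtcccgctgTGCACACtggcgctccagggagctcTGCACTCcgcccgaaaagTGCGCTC
Mt2: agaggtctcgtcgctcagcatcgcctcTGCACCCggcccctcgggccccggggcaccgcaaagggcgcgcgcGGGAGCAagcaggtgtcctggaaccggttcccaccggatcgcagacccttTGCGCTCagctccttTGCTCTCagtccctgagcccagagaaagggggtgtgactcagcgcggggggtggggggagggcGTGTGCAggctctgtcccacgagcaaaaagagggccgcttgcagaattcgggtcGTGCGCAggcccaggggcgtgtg
Sgk1: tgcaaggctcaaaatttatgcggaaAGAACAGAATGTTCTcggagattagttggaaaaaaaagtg

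Of the 9 genes, 7 had promoter windows of 300 bases in the RefSeq table, with 14 windows in all because *Sgk1* has 6 and *Tsc22d3* has 3. Windows of *Zbtb16* and *Nr3c1* were not analysed here. The TGCNCNC core occurred 6 times in the *Mt2* window, from 223 bases before to 4 bases after the start site, and 3 times in the *Mt1* window, from 23 bases before to 20 bases after it. At least 1 match was found in 8 of the 14 windows and in 51.0% of 32851 windows of all genes, and 5 or more matches in 0.697% of them. The core of the glucocorticoid response element (ACANNNTGT) was found 1 time in the *Mt1* window and in 2 windows of *Sgk1*, against 6.85% of all windows. The full palindrome (AGAACA and TGTTCT spaced by 3 bases, allowing no mismatch) was held by 3 of the 32851 windows, and the *Sgk1* start shown above is 1 of them. The antioxidant response element core (TGACNNNGC, 12.4% of all windows) matched 1 time, in *Mt2*, and the cyclic AMP response element (TGAC followed directly by GTCA) matched in none of the 14 windows. These matches describe letters only, and response elements that lie farther from the start site were not searched.

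Per kilobase of annotated exon, with all exons of a gene joined, *Tsc22d3* and *Mt1* had the highest levels of the 9 genes and *Zbtb16* the lowest. For *Mt1* the joined exons cover all 1246 bases of the gene, so its place in this order depends on the annotation. The mean over 16 libraries, in CPM per kilobase of exon (FPKM), was 35.9 for *Tsc22d3* and 35.3 for *Mt1*, whose libraries overlapped (31.9 to 40.4 and 21.7 to 46.1). It was 12.1 for *Mt2*, 6.87 for *Nr3c1*, 5.62 for *Fkbp5*, 4.25 for *Sgk1*, 3.89 for *Nr3c2*, 2.15 for *Pdk4* and 1.06 for *Zbtb16*. The FPKM ranges also overlapped between *Nr3c1* and *Fkbp5* (5.57 to 8.10 and 4.99 to 6.39), between *Sgk1* and *Nr3c2* (3.51 to 4.91 and 3.29 to 4.64) and between *Pdk4* and *Zbtb16* (1.34 to 2.76 and 0.802 to 1.45). Those of the other neighbours in this order did not overlap. The place of *Mt2* is less certain, since 432 of its 588 exon bases are shared with an antisense gene, as given below. *Mt1* varied most across libraries, with a highest level 2.12 times the lowest, and *Tsc22d3* least, at 1.27 times.

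The 4 comparisons of interest are injury in saline-treated mice, injury in DMI-treated mice, DMI in sham-operated mice and DMI in injured mice. They were tested with edgeR's quasi-likelihood test over 21371 genes in 1 fit of all 16 libraries, and a gene was called at a Benjamini-Hochberg adjusted p under 0.1. In SNI-Saline versus Sham-Saline 2 of the 9 genes were called, both higher, where 12% of all genes tested were (5.85% higher and 6.18% lower). In SNI-DMI versus Sham-DMI 0 of 9 were called (0.402% of all genes, 0.374% higher and 0.0281% lower). DESeq2 called 2 of the 9 in this comparison, beside 502 over all genes. At an unadjusted p under 0.05 there were 3 of the 9, and the share of all genes at that level is not given here. In Sham-DMI versus Sham-Saline 3 of 9 were called, 1 higher and 2 lower (23.4% of all genes, 11.6% higher and 11.9% lower). For DMI in injured mice 2 of 9 were called, 1 higher and 1 lower (2.93% of all genes, 1.32% higher and 1.61% lower). Groups without overlap were found for 15.4%, 5.04%, 17.1% and 13.3% of all genes in these comparisons, in the same order. The comparisons of injury under saline and of DMI in sham-operated mice share the Sham-Saline libraries.

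**Figure D1:**
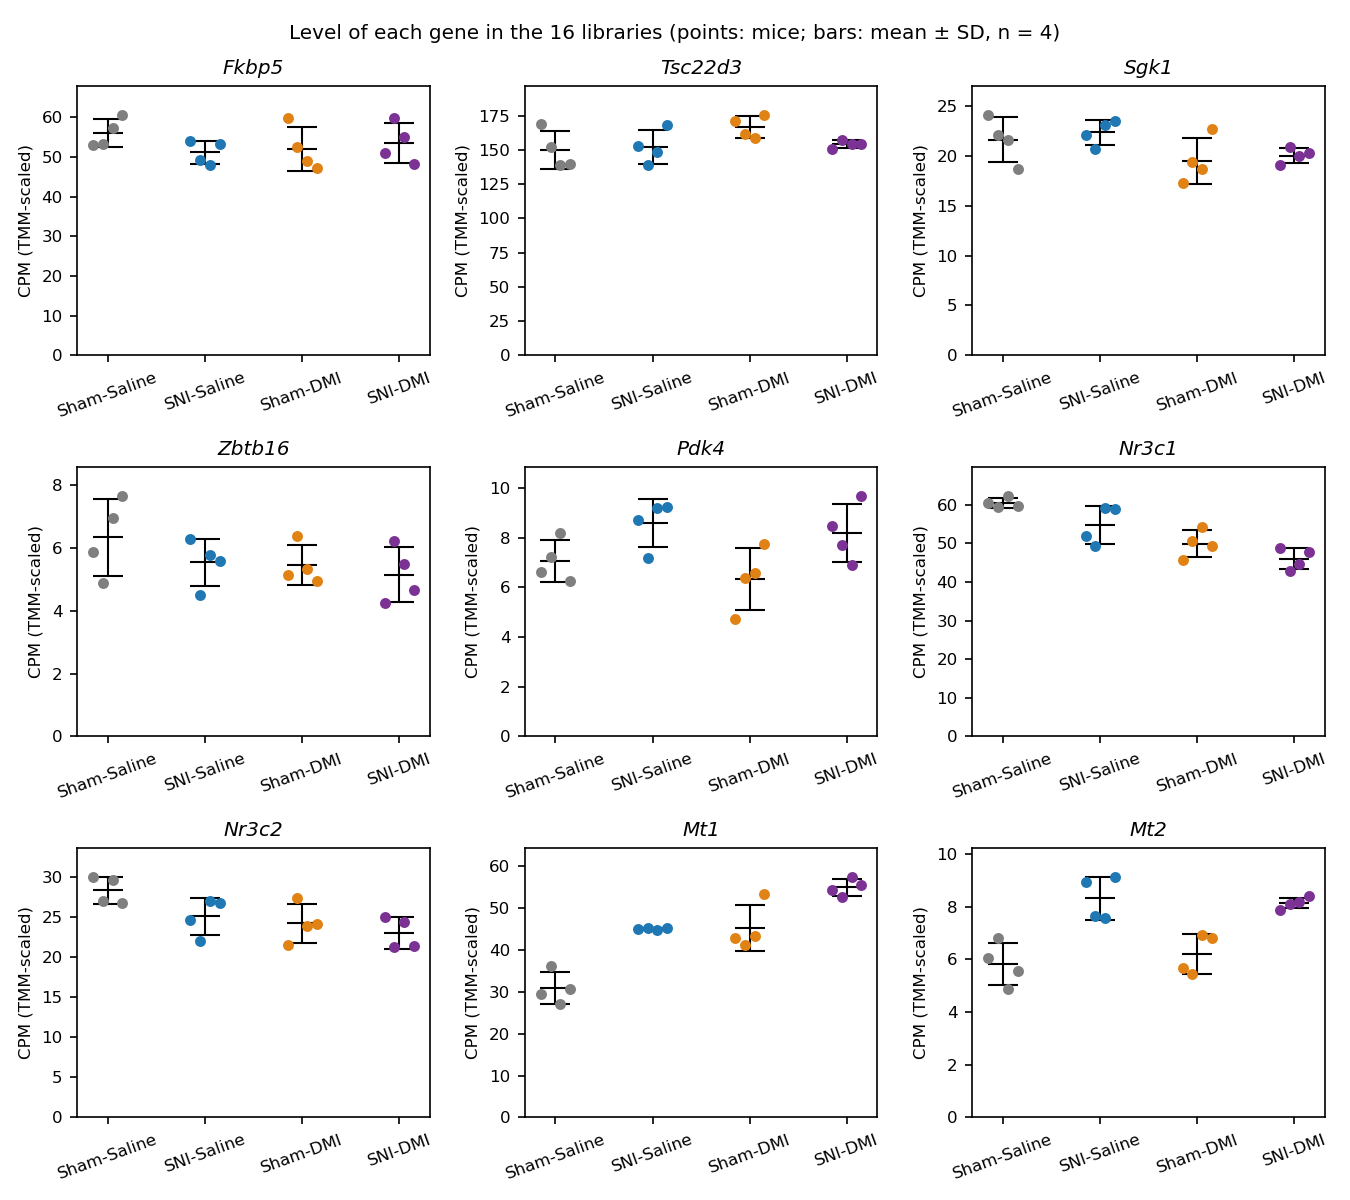
TMM-scaled level (CPM, axis from 0) of the 9 genes in each of the 16 mice by group, with 1 point per mouse and bars for the mean ± SD (n = 4). *Mt1* steps up from Sham-Saline (27.1 to 36.1 CPM) to SNI-DMI (52.7 to 57.5 CPM), *Mt2* is higher in both SNI groups, and *Nr3c1* is lowest in SNI-DMI, while *Fkbp5*, *Sgk1* and *Zbtb16* overlap in all groups.

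*Mt1* rose both with injury and with DMI, whereas *Mt2*, its neighbour, rose with injury under saline. *Mt1* (ENSMUSG00000031765) had 29.5, 36.1, 27.1 and 30.7 CPM in the 4 Sham-Saline mice and 45.1, 45.2, 44.8 and 45.4 CPM in the 4 SNI-Saline mice. It had 42.8, 41.2, 43.4 and 53.3 CPM in Sham-DMI and 54.3, 52.7, 57.5 and 55.6 CPM in SNI-DMI. All mice of the other 3 groups thus lay above every Sham-Saline mouse, and the SNI-Saline mice lay close together. In saline-treated mice the injury difference of *Mt1* was 0.55 on the log2 scale (95% interval 0.38 to 0.72, adjusted p = 0.00186), or 1.46-fold. The DMI difference in sham-operated mice had the same size, 0.55 (0.38 to 0.72, adjusted p = 0.00176). Both calls were kept in each of 16 fits that left out 1 library.

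With both treatments combined the steps of *Mt1* were smaller. In injured mice DMI raised *Mt1* by 0.29 on the log2 scale (0.12 to 0.46, adjusted p = 0.0959), without overlap between SNI-DMI and SNI-Saline. That call was lost without any of SNI-Saline replicates 1, 3 and 4, SNI-DMI replicates 1 to 4, Sham-Saline replicate 4 and Sham-DMI replicate 3, with adjusted p-values up to 0.256. The difference stayed at 0.28 to 0.30 in all 16 fits without 1 library, and in 5 of them no gene at all was called by edgeR. In DMI-treated mice the injury difference of *Mt1* was 0.28 (0.11 to 0.45, adjusted p = 0.180), and the lowest SNI-DMI mouse (52.7 CPM) lay below the highest Sham-DMI mouse (53.3 CPM). It was called without Sham-DMI replicate 4, at 0.36 (adjusted p = 0.0673). The 2 DMI differences of *Mt1* differed by -0.26 on the log2 scale (-0.50 to -0.024, SNI minus sham), with an unadjusted p of 0.0329 and an adjusted p of 0.619. No gene of the 21371 was called for this difference by edgeR (0%), 1692 had an unadjusted p under 0.05, and DESeq2 called 16.

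*Mt2* (ENSMUSG00000031762) had 6.07, 6.80, 4.88 and 5.55 CPM in Sham-Saline and 8.93, 7.66, 7.58 and 9.14 CPM in SNI-Saline. It had 5.69, 5.45, 6.94 and 6.81 CPM in Sham-DMI and 7.89, 8.12, 8.18 and 8.40 CPM in SNI-DMI. Every injured mouse was above every sham-operated mouse under either treatment. The injury difference of *Mt2* was 0.51 on the log2 scale under saline (0.28 to 0.75, adjusted p = 0.0180), kept in all 16 fits without 1 library. Under DMI it was 0.39 (0.16 to 0.63, adjusted p = 0.180). The DMI difference of *Mt2* was 0.092 in sham-operated mice (-0.14 to 0.33, adjusted p = 0.630) and -0.031 in injured mice (-0.26 to 0.20, adjusted p = 0.908). The values of *Mt2* are less certain than those of *Mt1*, since 432 of its 588 exon bases are shared with the antisense gene *Gm45774* (12 to 54 counts per library) and the use of strand in the counting is not given in the sources used here. The metallothioneins also resemble each other in sequence, and reads that aligned to more than 1 place stand in a line of their own in the count tables, outside every gene.

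The ratio of *Mt1* to *Mt2* counts, taken up after their values were seen, does not depend on the scaling of the libraries. It was 4.87 to 5.55 in the 4 Sham-Saline mice and 4.96 to 5.90 in the 4 SNI-Saline mice, against 6.25 to 7.82 and 6.49 to 7.02 in the corresponding DMI groups. Each DMI-treated mouse had a higher ratio than any saline-treated mouse. The geometric means were 5.31, 5.43, 7.27 and 6.75. On the log2 scale DMI raised the ratio by 0.45 in sham-operated and by 0.31 in injured mice (exact two-sided permutation p = 0.0286 for each, the smallest that 4 against 4 can give, and 0.0571 after Benjamini-Hochberg adjustment over 4 comparisons). The injury differences of the ratio were 0.035 under saline (exact permutation p = 0.714, adjusted 0.714) and -0.11 under DMI (exact permutation p = 0.200, adjusted 0.267). Since this ratio was chosen for what the values showed, these p-values only describe these 16 mice.

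**Figure D2:**
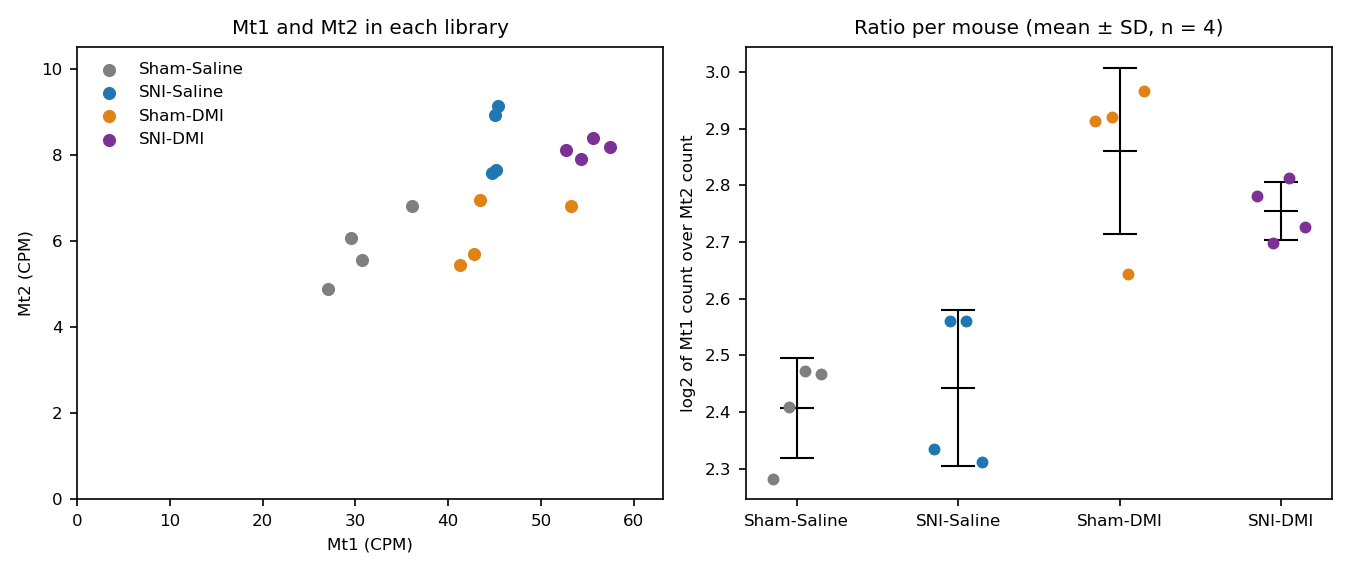
Left, *Mt2* against *Mt1* (CPM, axes from 0) in each of the 16 libraries, coloured by group. Right, log2 of the ratio of their counts per mouse, with the mean ± SD (n = 4) of each group. The saline groups lie at ratios of 4.87 to 5.90 and the DMI groups at 6.25 to 7.82, with no overlap.

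Both receptor genes were lower with DMI in sham-operated mice, and *Nr3c1* also in injured mice. *Nr3c1* (ENSMUSG00000024431), which encodes the glucocorticoid receptor, had 60.3, 59.5, 62.3 and 59.6 CPM in Sham-Saline and 45.6, 50.6, 54.2 and 49.2 CPM in Sham-DMI. In injured mice it had 51.8, 49.3, 59.0 and 58.9 CPM under saline and 48.8, 42.8, 44.7 and 47.6 CPM under DMI. The DMI groups lay wholly below their saline controls in both surgeries, though in injured mice the nearest pair lay close together (49.3 and 48.8 CPM). The difference was -0.28 on the log2 scale in sham-operated mice (-0.41 to -0.14, adjusted p = 0.00920), called in all 16 fits without 1 library, and -0.25 in injured mice (-0.39 to -0.12, adjusted p = 0.0802). The latter call was lost without any of Sham-Saline replicates 2 to 4, SNI-Saline replicates 1, 3 and 4 and SNI-DMI replicates 1 to 3, with adjusted p-values up to 0.252, while the difference stayed between -0.28 and -0.22, and the same 5 fits without any called gene are among these. With injury alone *Nr3c1* was lower in all SNI-Saline than in all Sham-Saline mice, by -0.14 (-0.28 to -0.0046, adjusted p = 0.200), which did not pass the threshold.

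*Nr3c2* (ENSMUSG00000031618, chr8:76899442-77245012), which encodes the mineralocorticoid receptor, had 30.1, 27.1, 29.6 and 26.8 CPM in Sham-Saline and 21.5, 27.5, 23.9 and 24.1 CPM in Sham-DMI. It had 24.6, 22.1, 27.003 and 26.8 CPM in SNI-Saline and 25.04, 21.3, 24.4 and 21.4 CPM in SNI-DMI. The groups overlapped in both DMI comparisons, through Sham-DMI replicate 2 in the sham-operated mice. The DMI difference was -0.23 on the log2 scale in sham-operated mice (-0.40 to -0.053, adjusted p = 0.0693) and -0.13 in injured mice (-0.30 to 0.048, adjusted p = 0.430). The call in sham-operated mice was lost without any of Sham-Saline replicates 1 and 3, Sham-DMI replicates 1, 3 and 4, SNI-Saline replicate 1 and SNI-DMI replicate 3. *Nr3c2* shares 247 of its 6474 exon bases with the antisense gene *Gm10649* (33 to 92 counts per library).

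The receptor differences depended on the processing. The call of *Nr3c2* in sham-operated mice was lost when the 8 libraries were fitted alone (-0.21, adjusted p = 0.110). When each library's trend of counts on gene GC content and exon length was removed, a step known to matter in this series from earlier results, the DMI difference of *Nr3c1* was -0.044 in sham-operated mice (adjusted p = 0.651) and -0.10 in injured mice (adjusted p = 0.395). That of *Nr3c2* was -0.11 (adjusted p = 0.332) and -0.061 (adjusted p = 0.723). This step also moved the calls over all genes for DMI in sham-operated mice from 2475 higher and 2535 lower to 3974 higher and 669 lower, those for DMI in injured mice from 282 and 344 to 142 and 15, those for injury under saline from 1250 and 1321 to 653 and 405, and those for injury under DMI from 80 and 6 to 71 and 41. The GC content of *Nr3c1* is 42.2%, the lowest of the 9 genes, and that of *Mt2* is 55.6%, the highest. *Mt1* (52.9% GC) kept a difference of 0.51 with DMI in sham-operated mice (adjusted p = 0.000531) and of 0.46 with injury under saline (adjusted p = 0.00201), and had 0.24 with DMI in injured mice (adjusted p = 0.134). *Mt2* kept its injury call under saline (0.40, adjusted p = 0.0729). *Tsc22d3* gained a call, at 0.23 with DMI in sham-operated mice (adjusted p = 0.0168).

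**Figure D3:**
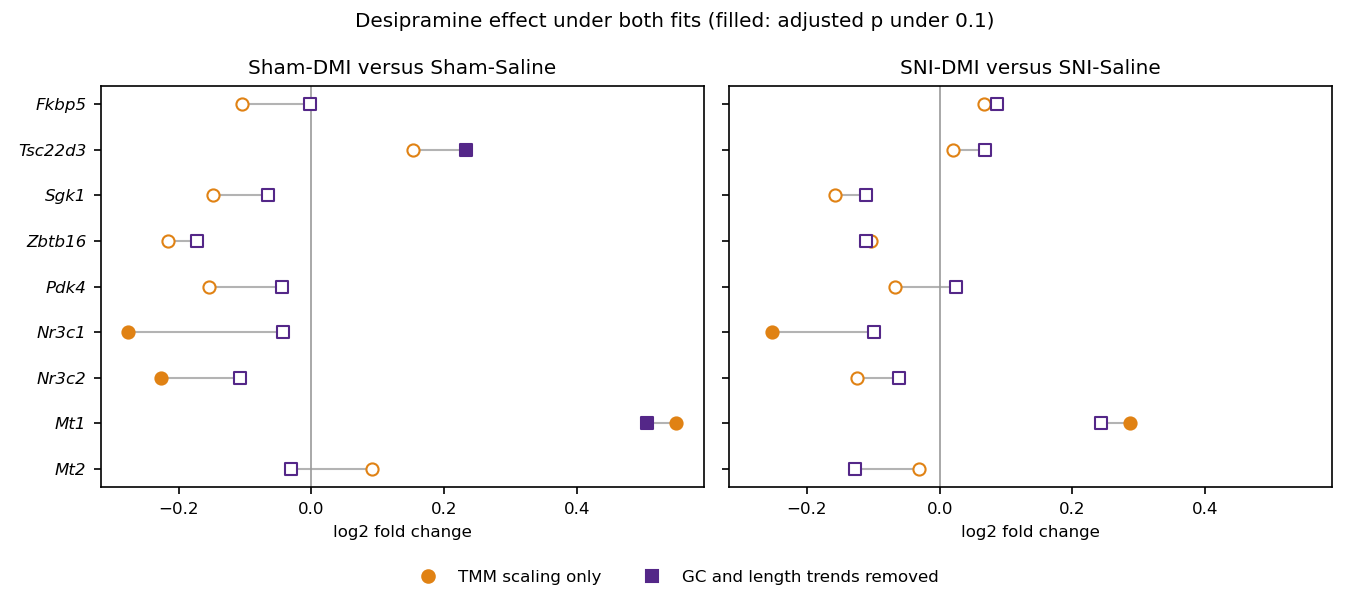
DMI differences (log2 fold change) of the 9 genes in sham-operated (left) and injured mice (right) with TMM scaling (circles) and with the GC and length trends taken out (squares), filled where the adjusted p is under 0.1. *Nr3c1* moves from -0.28 to -0.044 in sham-operated mice, while *Mt1* moves from 0.55 to 0.51.

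None of the 5 glucocorticoid-induced genes was called in any of the 4 comparisons by the edgeR fit of all 16 libraries with TMM scaling alone. Other settings of edgeR called *Tsc22d3* with DMI in sham-operated mice, as given below. At an unadjusted p under 0.05 there was 1 gene for DMI in sham-operated mice (*Tsc22d3*, which DESeq2 called) and 1 for injury under DMI (*Pdk4*, which DESeq2 did not call). Over all genes DESeq2 called 5580 and 502 in these 2 comparisons. *Fkbp5* (ENSMUSG00000024222, chr17:28399094-28517527) had 53.0, 53.3, 57.3 and 60.5 CPM in Sham-Saline, 53.9, 49.2, 48.0 and 53.2 CPM in SNI-Saline, 59.7, 52.4, 48.9 and 47.2 CPM in Sham-DMI and 50.9, 59.9, 55.1 and 48.3 CPM in SNI-DMI. All 4 groups overlapped. The DMI differences were -0.11 (-0.27 to 0.057, adjusted p = 0.384) in sham-operated and 0.067 (-0.095 to 0.23, adjusted p = 0.673) in injured mice, so that changes of more than about 0.27 on the log2 scale in either direction lay outside both intervals. *Zbtb16* (ENSMUSG00000066687, chr9:48654297-48836222), a zinc finger transcriptional repressor with a strong response to glucocorticoids in many cells, ranged from 4.23 to 7.65 CPM over all groups. Its DMI differences were -0.22 (-0.53 to 0.10, adjusted p = 0.357) and -0.10 (-0.42 to 0.21, adjusted p = 0.754).

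*Tsc22d3* (ENSMUSG00000031431, chrX:140539528-140600659) had 169, 152, 139 and 140 CPM in Sham-Saline and 171, 162, 159 and 176 CPM in Sham-DMI. It had 153, 139, 148 and 168 CPM in SNI-Saline and 151, 157, 154 and 154 CPM in SNI-DMI. The groups overlapped except for SNI-DMI, which lay just below Sham-DMI. The DMI difference in sham-operated mice was 0.15 on the log2 scale (0.019 to 0.29, adjusted p = 0.112), which 9 of the 16 fits without 1 library called. It was also called by edgeR with relative log expression scaling (0.17, adjusted p = 0.0872), upper-quartile scaling (0.16, adjusted p = 0.0887) and the trends removed (0.23, adjusted p = 0.0168). In injured mice it was 0.021 (-0.11 to 0.16, adjusted p = 0.894). The injury difference under DMI was -0.11 (-0.25 to 0.021, adjusted p = 0.494).

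*Sgk1* (ENSMUSG00000019970, chr10:21882184-21999903), a kinase that acts on ion channels and transporters downstream of both receptors, had 24.1, 22.1, 21.5 and 18.7 CPM in Sham-Saline and 17.2, 19.3, 18.6 and 22.6 CPM in Sham-DMI. In injured mice it had 22.05, 20.7, 23.1 and 23.5 CPM under saline and 19.03, 20.8, 19.9 and 20.2 CPM under DMI. The means were lower with DMI in both surgeries and the groups overlapped. The differences were -0.15 (-0.32 to 0.027, adjusted p = 0.243) and -0.16 (-0.33 to 0.017, adjusted p = 0.318). Averaged over both surgeries, the DMI difference of *Sgk1* was -0.15 (-0.28 to -0.029, adjusted p = 0.0694), a comparison in which 30.6% of all genes were called, 14.8% higher and 15.8% lower.

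*Pdk4* (ENSMUSG00000019577, chr6:5483351-5496309), a mitochondrial kinase that restrains the use of glucose and that fasting and glucocorticoids induce, had 6.61, 7.21, 8.18 and 6.26 CPM in Sham-Saline and 8.70, 7.18, 9.20 and 9.23 CPM in SNI-Saline. It had 4.71, 6.37, 6.57 and 7.74 CPM in Sham-DMI and 8.47, 7.70, 6.91 and 9.68 CPM in SNI-DMI. Most injured mice were above most sham-operated mice, with overlap under both treatments. The injury difference was 0.28 under saline (-0.014 to 0.57, adjusted p = 0.242) and 0.37 under DMI (0.072 to 0.66, adjusted p = 0.306). Averaged over both treatments it was 0.32 (0.12 to 0.53, adjusted p = 0.0486), a call lost without SNI-DMI replicate 4 (adjusted p = 0.111). In this averaged comparison 16.1% of all genes were called, 7.71% higher and 8.43% lower.

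The other averaged comparisons over 8 mice against 8 gave the following for the members. With DMI *Mt1* was higher by 0.42 (adjusted p = 0.000391), *Nr3c1* lower by -0.26 (adjusted p = 0.00102) and *Nr3c2* lower by -0.18 (adjusted p = 0.0374), the last without a call when Sham-Saline replicate 3 was left out (adjusted p = 0.103). With injury *Mt1* was higher by 0.42 (adjusted p = 0.000477), *Mt2* by 0.45 (adjusted p = 0.00396) and *Nr3c1* lower by -0.13 (adjusted p = 0.0829). The call of *Nr3c1* with injury was lost in 11 of 16 fits without 1 library, and that of *Sgk1* with DMI in 12 of 16. With the GC and length trends removed, *Mt1* (0.37, adjusted p = 0.000239) and *Tsc22d3* (0.15, adjusted p = 0.0239) were the members called with DMI. For the difference between the DMI effects in both surgeries edgeR and DESeq2 called 0 of the 9, and *Mt1* had an unadjusted p under 0.05.

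**Figure D4:**
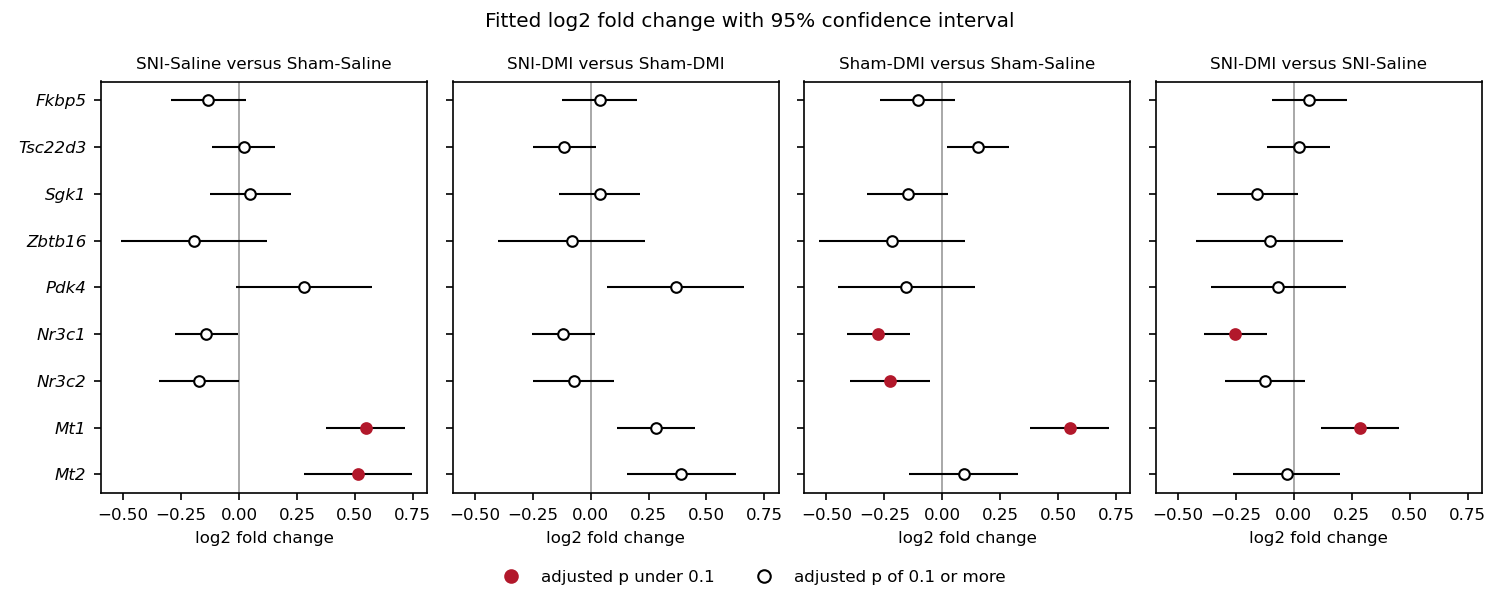
Log2 fold change of the 9 genes with its 95% confidence interval in the 4 comparisons (1 panel each), filled in red where the adjusted p is under 0.1. *Mt1* is at 0.55 for injury under saline and for DMI in sham-operated mice, *Mt2* at 0.51 and 0.092, and the intervals of *Fkbp5*, *Sgk1* and *Zbtb16* cross 0 in every panel.

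Of 30 further genes that glucocorticoids induce, 29 were tested. With TMM scaling, the share of them called lower with DMI in sham-operated mice was near that of all genes. In Sham-DMI versus Sham-Saline 0 were called higher and 4 lower (11.6% and 11.9% of all genes), and the median log2 fold change was -0.095 beside -0.021 over all genes tested. *Klf9*, a transcription factor gene induced by both receptors, was 73.2, 67.8, 78.2 and 75.1 CPM in Sham-Saline and 56.1, 65.5, 57.4 and 51.6 CPM in Sham-DMI, a difference of -0.35 (adjusted p = 0.00292) without overlap. The others were the clock gene *Per1* (-0.30, adjusted p = 0.0311), *Xdh* of purine breakdown (-0.46, adjusted p = 0.0717) and *Lcn2*, a gene of neutrophil granules (-1.11, adjusted p = 0.0277). The call of *Per1* was kept in 14 of 16 fits without 1 library and that of *Xdh* in 10. With the GC and length trends removed *Xdh* lost its call (adjusted p = 0.166) and the other 3 kept theirs, *Klf9* at -0.25 (adjusted p = 0.0104). That fit called 0 of the list higher and 3 lower, beside 3974 higher and 669 lower of 21324 genes tested. For DMI in injured mice 1 was called lower (1.61% of all genes), *Klf9* at -0.28 (adjusted p = 0.0655), in 10 of 16 fits without 1 library and not with the trends removed (adjusted p = 0.130). With injury under saline 2 of the 29 were called higher, *Xdh* (0.72, adjusted p = 0.0235) and *Gadd45b* (0.38, adjusted p = 0.0268), and 0 lower (5.85% and 6.18% of all genes). Under DMI 1 was called with injury (0.402% of all genes), *Xdh* (0.92, adjusted p = 0.0266). That call was lost without SNI-DMI replicate 1 or 4, with adjusted p-values up to 0.151. With DMI averaged over both surgeries 2 of the 29 were called higher and 6 lower (14.8% and 15.8% of all genes). With the trends removed this became 1 higher and 4 lower, beside 4395 and 1001 over all genes.

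Of 17 genes for chaperones, coregulators and steroid enzymes of the receptors, 4 were called higher and 5 lower with DMI in sham-operated mice (11.6% and 11.9% of all genes). The higher genes encode chaperones and co-chaperones: *Hsp90ab1* (0.21, adjusted p = 0.0167), *Fkbp4* (0.21, adjusted p = 0.00864), *Hspa8* (0.24, adjusted p = 0.0104) and *Stip1* (0.18, adjusted p = 0.0177). The lower genes were the coactivators *Ncoa1* (-0.38, adjusted p = 0.00528) and *Ncoa2* (-0.34, adjusted p = 0.00491), the corepressors *Ncor1* and *Nrip1*, and *H6pd*, which supplies reducing power to the enzyme that regenerates corticosterone. With the trends removed 6 were called higher and 3 lower, beside 3974 and 669 over all genes. *Ncor1* (adjusted p = 0.507) and *Nrip1* (adjusted p = 0.717) were no longer among the called genes. With TMM scaling their calls were kept in 11 and 12 of 16 fits without 1 library. In injured mice DMI raised *Hsp90ab1* (0.22, adjusted p = 0.0729), in 9 of 16 fits without 1 library and not with the trends removed (adjusted p = 0.124). With injury under saline 4 coregulator genes were called lower (2 with the trends removed) and 0 genes higher, beside 6.18% lower and 5.85% higher of all genes. Under DMI edgeR (0.402% of all genes) and DESeq2 called 0 of the 17 with injury, and 2 had an unadjusted p under 0.05.

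**Figure D5:**
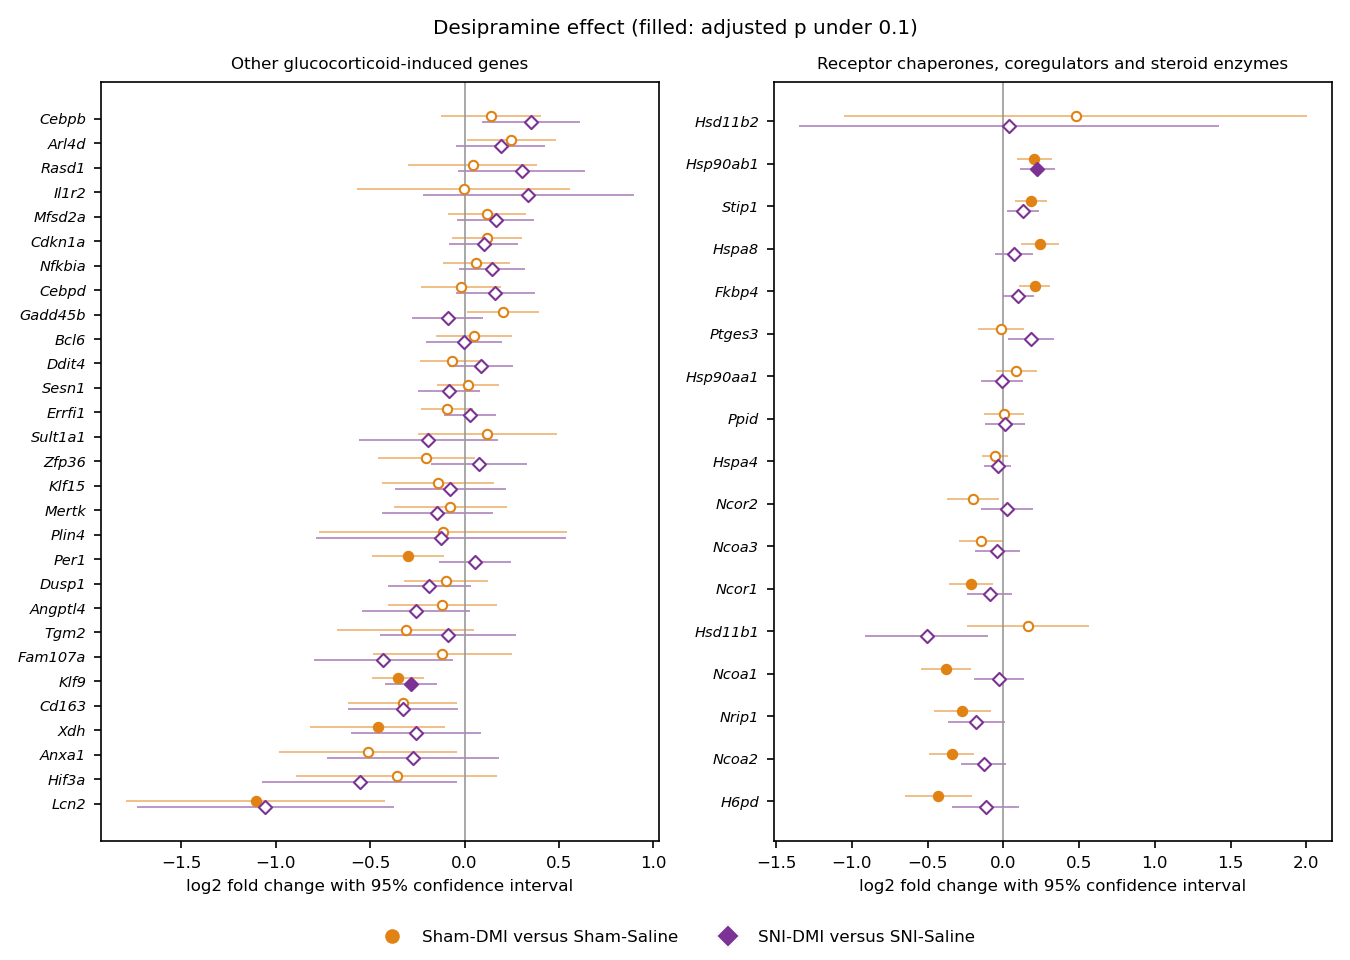
DMI differences (log2 fold change with 95% confidence interval) of 29 further glucocorticoid-induced genes (left) and 17 genes of receptor partners (right) in sham-operated (circles) and injured mice (diamonds), filled where the adjusted p is under 0.1. *Klf9* is filled in both comparisons at -0.35 and -0.28, and *Hsp90ab1* is the filled diamond of the right panel.

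Of the 14 paralogs of the members 13 were tested. *Mt3*, the neural metallothionein, had 128, 146, 125 and 129 CPM in Sham-Saline, 162, 166, 145 and 156 CPM in SNI-Saline, 194, 149, 177 and 161 CPM in Sham-DMI and 194, 173, 182 and 167 CPM in SNI-DMI. It was higher with DMI in sham-operated mice (0.37, adjusted p = 0.00446, and 0.32 with the trends removed). With injury under saline it was higher by 0.25 (adjusted p = 0.0521). That call was kept in 11 of 16 fits without 1 library and lost with the trends removed (adjusted p = 0.113). In injured mice its DMI difference was 0.19 (adjusted p = 0.188), and its injury difference under DMI was 0.075 (adjusted p = 0.714). In Sham-DMI versus Sham-Saline 2 paralogs were called higher (*Mt3* and *Fkbp4*) and 3 lower, where 11.6% and 11.9% of all genes were. Among the lower were the progesterone receptor gene *Pgr* (-0.55, adjusted p = 0.00528) and *Tsc22d2* (-0.30, adjusted p = 0.00741). With the trends removed *Pgr* kept its call (-0.40, adjusted p = 0.0130) and *Tsc22d2* lost it (adjusted p = 0.299). For DMI in injured mice 1 paralog was called (2.93% of all genes), *Sgk3* (-0.28, adjusted p = 0.0735). That call was kept in 9 of 16 fits without 1 library and lost with the trends removed (adjusted p = 0.820).

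Of 25 genes of zinc and metal handling 21 were tested. With injury under saline 3 were called higher and 3 lower (5.85% and 6.18% of all genes). *Mtf1*, whose product acts on metal response elements, was among the lower genes (-0.18, adjusted p = 0.0722). It was called in 7 of 16 fits without 1 library and not with the trends removed (adjusted p = 0.295). *Slc30a3*, a zinc transporter of synaptic vesicles, was 0 to 0.031 CPM in Sham-Saline and 0.34 to 0.61 CPM in SNI-Saline (adjusted p = 0.000632), and 0 to 0.055 CPM in Sham-DMI and 0.12 to 0.45 CPM in SNI-DMI (adjusted p = 0.0334). The call under DMI was kept in 14 of 16 fits without 1 library. With DMI in sham-operated mice 2 were called higher, *Mt3* and *Slc39a13*, and 3 lower (11.6% and 11.9% of all genes). With the trends removed 6 were called higher and 0 lower, while the calls over all genes moved from 2475 higher and 2535 lower to 3974 and 669. In injured mice edgeR (2.93% of all genes) and DESeq2 called 0 of the 21 with DMI, and 2 had an unadjusted p under 0.05.

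Markers of other cell types moved with some of these results. The summed level of 9 satellite glia markers was 3146 to 3473 CPM in the Sham-Saline mice and 3558 to 3990 CPM in the SNI-Saline mice, and 3233 to 3991 CPM and 3542 to 4127 CPM in the corresponding DMI groups. With injury under saline 2 of 9 were called higher (*Apoe* and *Sparcl1*, beside 5.85% of all genes). With DMI in sham-operated mice 2 of 9 were (*Apoe* and *Fabp7*, beside 11.6% of all genes). The median of the 9 was 0.034 and -0.031 in these comparisons, with 6 and 3 of 9 above 0. Within groups these sums followed *Mt2* (Pearson r of deviations from the group means 0.58, n = 16) more than *Mt1* (0.30). The 7 Schwann cell markers summed to 3932 to 5757 CPM in Sham-Saline and 5355 to 6411 CPM in SNI-Saline. With injury under saline 7 of 7 were above 0 (median 0.26) and 0 were called. With injury under DMI 4 of 7 were above 0 (median 0.013) and 0 were called. The 7 macrophage markers summed to 74.9 to 87.4 CPM in Sham-Saline and 90.3 to 157 in SNI-Saline, with 3 of 7 called higher. Injured neuron markers summed to 43.2 to 55.1 and 183 to 205 CPM, with 6 of 7 called higher, where 5.85% of all genes were. In Sham-DMI the injured neuron markers summed to 57.7 to 89.5 CPM, with 4 of 7 called higher than in Sham-Saline (11.6% of all genes). The 7 neutrophil markers summed to 10.4 to 38.8 CPM in Sham-Saline and 3.796 to 15.9 in Sham-DMI, with 7 of 7 called lower (11.9% of all genes), beside which the lower *Lcn2* stands. Within groups the r of *Mt1* was 0.18 with the macrophage sums and 0.12 with the injured neuron sums, and that of *Mt2* with the latter was -0.17. The part of these cells in the results was not tested.

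For *Pdk4*, which muscle and fat express strongly, the sums of their markers are given. Of the 6 adipocyte markers tested *Car3* was the 1 called with injury, where 5.85% of all genes under saline and 0.374% under DMI were called higher. It was higher by 2.05 with injury under saline (adjusted p = 0.00743) and by 1.61 under DMI (adjusted p = 0.0772). The median of the 6 was 0.23 and -1.11, and the other 5 had negative values under DMI. The 7 adipocyte markers summed to 3.94 to 15.5 CPM in the Sham-Saline mice and 18.3 to 33.2 CPM in the SNI-Saline mice, and 3.996 to 33.4 CPM and 14.3 to 24.04 CPM in the corresponding DMI groups, and within groups their log2 sum had a Pearson r of 0.75 with *Pdk4* (n = 16). The 7 skeletal muscle markers summed to 277 CPM in SNI-DMI replicate 2, 77.6 in SNI-Saline replicate 2 and 49.3 in Sham-Saline replicate 1, and to less in every other library. *Pdk4* was 7.70, 7.18 and 6.61 CPM in these 3 libraries, none the highest of its group. Within groups the log2 sum of the muscle markers had a Pearson r of -0.33 with *Pdk4* (n = 16). The part of fat cells in the injury difference of *Pdk4* was not tested.

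Within groups, some members varied together from mouse to mouse. After the group means were removed, the Pearson r of log2 CPM over 16 libraries was 0.69 for *Mt1* and *Mt2*, 0.66 for *Nr3c1* and *Nr3c2*, 0.66 for *Pdk4* and *Nr3c1*, 0.65 for *Tsc22d3* and *Sgk1* and 0.60 for *Sgk1* and *Pdk4*, and it was -0.61 for *Fkbp5* and *Pdk4*. These are 6 of 36 pairs, those at 0.6 or beyond, and all pairs share the libraries and their scaling. Their standard errors, from leaving out each library in turn (jackknife), were 0.14 to 0.21. How often pairs of other genes reach such values was not tested. The r of *Fkbp5* and *Tsc22d3*, both classical glucocorticoid targets, was -0.0024.

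Over the 16 libraries, groups included, the genes most like each member in rank among 15749 genes with a mean of at least 1 CPM differed between members. They were *Efemp2*, *Fuca1* and *Tpm3* for *Mt1* (Spearman rho 0.92 to 0.93) and *Crem*, *Pon2* and *Ptn* for *Mt2* (0.89 to 0.92). For *Nr3c1* they were *Yme1l1*, *Agps* and *Zfp644* (0.98 each), and for *Nr3c2* *Trhde*, *Fam210a* and *Noc3l* (0.95 to 0.96). For the induced genes *Inafm2* led for *Fkbp5* (0.89), *Tmem35a* for *Tsc22d3* (0.92), *Inhba* for *Sgk1* (0.86), *Zdhhc5* for *Zbtb16* (0.84) and *Mavs* for *Pdk4* (0.94). No member was among the 3 genes most like another member. *Nr3c2* ranked 1299 for *Nr3c1* and *Nr3c1* ranked 686 for *Nr3c2*, while *Mt2* ranked 389 for *Mt1* and *Mt1* ranked 43 for *Mt2*.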

How the data were processed

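The authors prepared stranded mRNA libraries from flash-frozen L3-6 DRGs, and the submitters' processing notes name HISAT2, HTSeq, DESeq2 and mm10. The deposited values are whole-number counts per Ensembl gene, not normalized. Which annotation release was counted, and whether strand was used, is not given in the sources used here. The lines of unassigned reads, 18.8% to 20.4% of each library, were left out. Symbols and coordinates come from GENCODE M21 (GRCm38), which holds 52489 of the 52636 genes, and promoter windows from RefSeq (GRCm38.p6).

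Differences were fitted with edgeR 4.0.16 in R 4.3.3 (filterByExpr on the 4 groups, 21371 genes; TMM; glmQLFit with 1 coefficient per group; glmQLFTest; Benjamini-Hochberg adjustment, call at an adjusted p under 0.1). Confidence intervals (95%) use the fit's standard error and degrees of freedom. CPM is edgeR's count per 1000000 reads of the TMM-scaled library, and FPKM divides it by the summed exon length. Ratios were compared by an exact permutation test in python 3.11.15 with scipy 1.17.1. Pearson correlations use log2 CPM with a prior count of 2. The procedure was tested on simulated data.

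Alternatives were DESeq2 1.42.0, relative log expression and upper-quartile scaling, no filter, at least 10 counts in every library, the 8 libraries of a comparison, the replicate number as a block, the removal of GC content and length trends (mgcv 1.9.3, basis size of 8) and each library left out in turn. Replicates were separate mice, and no pair of libraries was a copy (chi-square per gene of 9.66 to 40.4). The members and gene lists were chosen with earlier results of these data known. All 9 members are named in every comparison, and of other lists the called counts and at most 4 genes with the smallest p per comparison, besides genes named to account for such a count.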

Additional observations from a re-analysis of the deposited data

How the results depend on the processing

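Of 1485 refits of the members' differences, 1361 kept direction and call, 64 lost a call, 24 gained one and 36 changed sign. Most of the 63 differences were not called in the main fit and so had no call to lose. The 64 lost calls fell on 9 differences that were called there. The cause of these changes was not tested. The count of members called for injury under DMI was 0, but 1 without a filter and 2 with DESeq2. For DMI in injured mice it was 2, but 1 with upper-quartile scaling, 0 with the replicate block and 0 with GC and length trends removed. For DMI averaged over both surgeries it was 4, but 2 with the trends removed. Without 1 library these counts ranged from 0 to 1, from 0 to 2 and from 2 to 4.

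With the trends removed the sign turned for *Mt2* with DMI in sham-operated mice (-0.030) and averaged (-0.079), *Pdk4* with DMI in injured mice (0.025), *Nr3c1* for the difference of the DMI effects (-0.056) and *Fkbp5* with DMI averaged (0.042). Without 1 library the difference ranged from -0.051 to 0.013 for *Fkbp5* with DMI averaged and from -0.020 to 0.10 with injury under DMI, from -0.081 to 0.016 for *Mt2* with DMI in injured mice, and from -0.034 to 0.063 for *Nr3c1* in the difference of DMI effects. For *Pdk4* it ranged from -0.16 to 0.023 with DMI in injured mice and from -0.046 to 0.18 in that difference. For *Sgk1* the ranges were -0.029 to 0.11 with injury under DMI, -0.0096 to 0.11 under saline and -0.080 to 0.056 in the difference. For *Tsc22d3* they were -0.0052 to 0.070 with DMI in injured mice and -0.031 to 0.092 with injury under saline, and for *Zbtb16* -0.19 to 0.012 with injury under DMI. The log2 ratio of *Mt1* to *Mt2* ranged from -0.18 to -0.071 with injury under DMI and from -0.0070 to 0.078 under saline. With group means kept in, r was 0.12 for *Tsc22d3* and *Sgk1*, 0.17 for *Pdk4* and *Nr3c1* and 0.83 for *Nr3c1* and *Nr3c2*.

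Over all genes, calls for injury under saline were 2571, and 1058 with the trends removed. Those for injury under DMI were 86, but 310 without a filter, 502 with DESeq2 and 9 with the 8 libraries alone. Those for DMI in injured mice were 626, but 1859 with DESeq2, 1812 with the 8 libraries, 172 with the replicate block and 157 with the trends removed. Without 1 library the calls for DMI in injured mice ranged from 0 to 1842, with 0 without any of SNI-Saline replicates 1 and 3 and SNI-DMI replicates 1 to 3, and 38 without SNI-Saline replicate 4. They ranged from 682 to 3286 for injury under saline, from 17 to 850 for injury under DMI and from 3286 to 6094 for DMI in sham-operated mice. Those for injury averaged were 3449, and 1896 with the trends removed. The deviations of mice with the same replicate number had an r from -0.081 to 0.18, with 5 of 24 pairs over 0.1. For different numbers it ran from -0.25 to 0.17, with 7 of 72 pairs over 0.1. The medians were 7.4e-06 and 0.0014, and the replicate number was not taken as a pairing. With it as a block *Mt1* (adjusted p = 0.123) and *Nr3c1* (adjusted p = 0.107) were not called for DMI in injured mice, at differences of 0.29 and -0.25. The 4 mice per group limit the precision, and the lowest count of a member in any library was 213.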
